A study of Mus musculus with 4 samples.

Results

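H3K14ac 7G8 over input compares 1 chromatin immunoprecipitation library, made with a mouse monoclonal antibody against histone H3 acetylated at lysine 14 (clone 7G8), with the input DNA of cells labelled as the same line. It takes 2 of the 4 libraries of the series, chosen by their titles. All 4 came from E14 mouse embryonic stem (mES) cells of strain 129P2/OlaHsd at passage 25-30, and no label gives a treatment. The study's methods describe cells moved off their feeder layer before the chromatin was taken. They name neither the 7G8 library nor this input, and the study's data list gives another input. The methods were taken to hold for both libraries. The other 2 libraries were made with an antibody against acetylated H3 lysine 9 (H3K9ac) and with another H3K14ac monoclonal, 13HH3. Each group held 1 library, so there was no replicate check, no p-value is given, and every interval is the exact 95% interval of a ratio of 2 tag numbers, which covers counting error only.

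Acetylation of lysine 14 neutralises a charge on the tail of histone H3. It is laid down by acetyltransferases such as GCN5 and the MYST-family enzyme HBO1, removed by histone deacetylases, and read by bromodomain proteins. Together with H3K9ac it is known for marking the nucleosomes that flank the start sites of active genes, many of which lie in CpG islands, the stretches of the genome that keep their CpG dinucleotides.

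A tag is 1 mapped 36 bp read, placed 100 bp to its 3′ side to stand for the middle of its DNA fragment. On chromosomes 1 to 19 the 7G8 library held 23248981 tags and the input 18688897, and scaled tags below are tags per 10000000 of these totals. A ratio of 1 means equal shares of both libraries. For single windows the log2 ratio was taken after adding 1 scaled tag to each side, so that windows with few tags are drawn towards 0. The interval beside it is that of the tag numbers without this addition, so it need not be centred on the value.

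The input library stood apart from the 3 antibody libraries along the genome. Its labels give the same line and passage range, but not whether it came from the same culture, and this bears on every ratio over input. In 38 segments of 1 Mb, on 6 chromosomes, it held at least 1.5 times the share of the highest antibody library. Of these, 16 lay on chromosome 17 and 14 on chromosome 6, and the ratio reached 3.92 there at the start of chromosome 17 and 5.42 in a single segment of chromosome 7. For whole chromosomes the log2 ratio of 7G8 over input ran from -0.45 on chromosome 17 to 0.30 on chromosome 12. The opposite also occurred, since some regions were nearly empty in input and held tags in all 3 antibody libraries. A local ratio is therefore also given, for the counts and for most named TSSs, bodies and regions: the log2 ratio of a window less that of its flanks, from 10 to 50 kb on each side. For a gene body the flanks are instead the 50 kb next to the gene on each side, which include the sequence just upstream of its start. Of the 256 protein-coding genes in the 38 segments, 213 could be tested, and 2 of their start sites were at least 2-fold higher and 52 at least 2-fold lower in 7G8. With the local ratio these counts were 37 and 0.

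The sequences below are examples of the DNA behind the highest ratios. They are the 300 bp with the largest excess of 7G8 tags, on mm9 (NCBIM37), at the 3 CpG-rich start sites and the 3 distal regions ranked highest by the lower bound of their counting interval. The CpG-poor start of Gm17421, second by that bound, is left out. CpG dinucleotides are in capitals. Those of Hnrnpa3 (chr2:75496468-75496767, plus strand, centred 700 bp upstream of the start, 34 tags in 7G8 and 1 in input), Mttp (chr3:137806412-137806711, minus strand, 210 bp upstream, 25 and 2 tags) and Hist1h2bb (chr13:23836603-23836902, plus strand, 1850 bp upstream, 29 and 1 tags) lie beside start sites.
Hnrnpa3: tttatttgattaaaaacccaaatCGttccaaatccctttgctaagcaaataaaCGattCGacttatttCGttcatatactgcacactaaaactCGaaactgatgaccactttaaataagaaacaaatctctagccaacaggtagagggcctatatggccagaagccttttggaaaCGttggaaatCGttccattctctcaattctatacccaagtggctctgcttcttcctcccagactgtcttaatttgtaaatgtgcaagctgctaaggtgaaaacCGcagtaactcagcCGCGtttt
Mttp: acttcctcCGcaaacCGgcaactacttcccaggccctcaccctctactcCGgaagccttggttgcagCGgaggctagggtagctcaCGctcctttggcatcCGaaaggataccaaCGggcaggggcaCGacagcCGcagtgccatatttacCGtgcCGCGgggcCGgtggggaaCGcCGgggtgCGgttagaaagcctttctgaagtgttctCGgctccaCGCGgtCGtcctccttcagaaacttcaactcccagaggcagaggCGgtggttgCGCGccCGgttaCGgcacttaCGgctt
Hist1h2bb: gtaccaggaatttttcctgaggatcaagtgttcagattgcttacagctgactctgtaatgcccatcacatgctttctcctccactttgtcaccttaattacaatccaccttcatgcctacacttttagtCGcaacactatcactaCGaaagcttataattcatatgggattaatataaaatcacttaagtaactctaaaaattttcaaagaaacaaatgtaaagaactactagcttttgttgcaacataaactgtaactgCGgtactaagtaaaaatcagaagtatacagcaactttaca
The Mttp stretch held 26 CpGs, the Hnrnpa3 stretch 10 and the Hist1h2bb stretch 3. At Hnrnpa3 and Hist1h2bb the stretch with the largest excess was AT-rich, with a GC content of 39.7% and 34.7%. The Hist1h2bb stretch begins at the edge of its window. It is centred 718 bp downstream of the start of the neighbouring Hist1h3c and overlaps that gene by 61 bp, so it cannot be assigned to either of them.

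The distal stretches are named by the nearest protein-coding start site. They lie at chr2:156555701-156556000 (Myl9, within Dlgap4, 20 tags in 7G8 and 0 in input), chr19:9256161-9256460 (Asrgl1, 14 and 1 tags) and chr4:121650901-121651200 (Gm12887, 10 and 0 tags), all read on the plus strand.
Myl9: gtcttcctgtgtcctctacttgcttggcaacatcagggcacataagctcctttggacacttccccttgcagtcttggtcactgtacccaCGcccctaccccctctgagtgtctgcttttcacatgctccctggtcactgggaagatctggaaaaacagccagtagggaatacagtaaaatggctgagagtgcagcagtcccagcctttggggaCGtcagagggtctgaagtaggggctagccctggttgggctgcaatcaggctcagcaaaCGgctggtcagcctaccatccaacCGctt
Asrgl1: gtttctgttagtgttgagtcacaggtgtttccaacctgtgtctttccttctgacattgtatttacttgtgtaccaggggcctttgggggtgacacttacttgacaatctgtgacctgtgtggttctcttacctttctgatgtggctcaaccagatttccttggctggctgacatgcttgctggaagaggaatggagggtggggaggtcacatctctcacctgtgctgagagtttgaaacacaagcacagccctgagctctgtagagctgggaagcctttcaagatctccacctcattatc
Gm12887: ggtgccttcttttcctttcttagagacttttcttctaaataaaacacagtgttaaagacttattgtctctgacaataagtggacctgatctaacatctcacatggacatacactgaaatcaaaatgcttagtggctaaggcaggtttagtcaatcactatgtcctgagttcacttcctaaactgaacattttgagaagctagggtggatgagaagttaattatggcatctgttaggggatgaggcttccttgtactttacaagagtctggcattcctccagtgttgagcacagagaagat
They held 4, 0 and 0 CpGs. The flanks of the Gm12887 region held 149 tags of 7G8 and 16 of input, a log2 ratio of 2.90, whereas those of the Myl9 region had a log2 ratio of 0.12 and those of the Asrgl1 region 1.31.

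Start sites of protein-coding genes carried more 7G8 signal than input. A window of 2 kb on each side of the transcription start site (TSS) of each gene in GENCODE vM1 gave 21418 windows, in 19572 stretches once overlapping windows were joined. These held 5.07% of the 7G8 tags and 4.01% of the input tags, a ratio of 1.27 (95% interval 1.26 to 1.27) and of 1.30 by the local ratio. Against its own flanks the 7G8 library was 1.38 times denser in these windows and the input 1.03 times.

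Of the 20600 TSSs with at least 20 tags in both libraries together, 3102 (15.1%) were at least 2-fold higher in 7G8 and 231 (1.12%) at least 2-fold lower. By the local ratio 3072 (14.9%) were higher and 104 (0.505%) lower, and 2205 TSSs were higher by both. With a pseudocount of 5 the higher TSSs were 1973. The median log2 ratio of all TSSs tested was 0.33, with the 5th and 95th percentiles at -0.61 and 1.42. Of the other 818 genes, which fell below 20 tags, 339 had no tag in either library. A median window held 60 tags in 7G8 and 36 in input.

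The ratio differed with the CpG content of promoters. CpG-rich promoters, those with a 500 bp stretch of at least 55% GC and an observed over expected CpG ratio of at least 0.75, were at least 2-fold higher in 2099 of 7647 cases (27.4%), with a median log2 ratio of 0.64. Intermediate promoters reached 690 of 5015 (13.8%, median 0.36). CpG-poor promoters, in which no stretch passed a CpG ratio of 0.48, reached 313 of 7938 (3.94%, median 0.06). Pooled over joined windows the ratios were 1.54 (1.53 to 1.54), 1.29 (1.28 to 1.29) and 1.04 (1.03 to 1.04). These intervals cover counting error only. Between 1 Mb segments of the genome the log2 ratio of 7G8 over input had a standard deviation of 0.27, which they leave out. The local ratio gave 2161, 669 and 242 TSSs at least 2-fold higher in the 3 classes. Both libraries differed between the classes. Over its own flanks 7G8 was 1.52 times denser at CpG-rich and 1.21 times at CpG-poor TSSs, and input 0.933 and 1.13 times, so that input moved in the opposite direction.

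H3K9ac over the same input had medians of 2.11, 1.48 and -0.05 in the 3 classes, and 13HH3 over the same input 0.63, 0.35 and 0.04. The 3 antibody libraries share the input, so these values are set side by side and are not separate observations of it. The 2 H3K14ac antibodies gave medians of about the same size in each class, and H3K9ac spanned the widest range.

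Along the TSS the 7G8 signal had 2 flanks and a trough. At CpG-rich promoters the ratio reached 2.20 (2.14 to 2.26) in the 100 bp step centred 450 bp upstream of the TSS and 1.96 (1.91 to 2.01) 850 bp downstream. It fell to 1.17 (1.13 to 1.21) 50 bp upstream of the TSS, where both libraries had few tags. Intermediate promoters showed the same order of upstream flank, trough and downstream flank at 1.83, 1.30 and 1.61. CpG-poor promoters had a low hump, with 1.13 on the upstream side and 1.12 on the downstream side. Input was itself not flat, since its density 150 bp downstream of all TSSs was 1.57 times that at the edges of the 5 kb profile, and 7G8 there was 2.02 times its own edges.

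**Figure D1:**
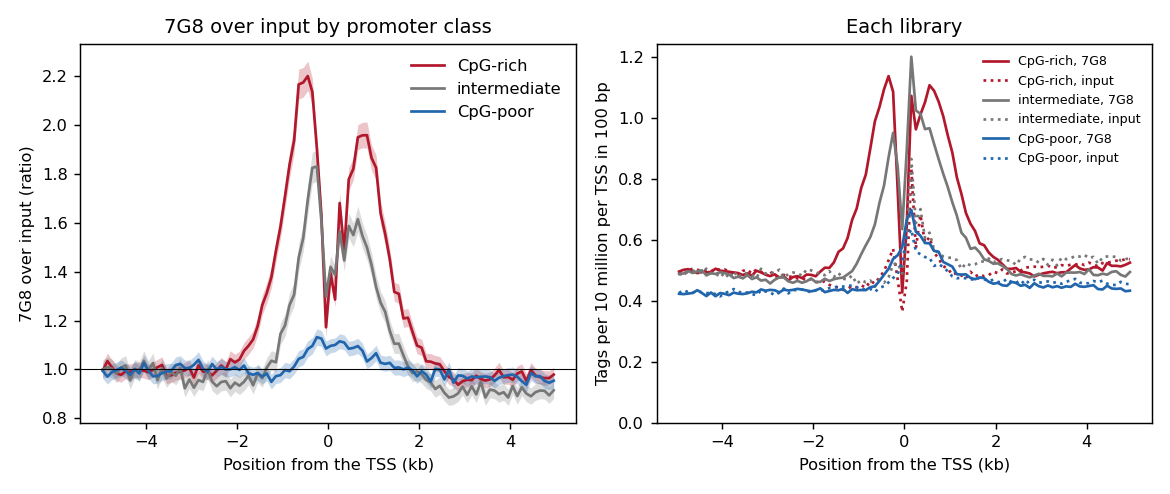
7G8 over input (left, ratio with the 95% counting interval as a band) and the tags of each library (right, scaled tags per TSS in 100 bp steps, solid for 7G8, dotted for input) from 5 kb upstream to 5 kb downstream of the TSS, by promoter class. The CpG-rich curve has flanks of 2.20 and 1.96 around a trough of 1.17, and the CpG-poor curve stays at or below 1.13.

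The order of promoter classes did not run with GC content in the rest of the genome. In distal 1 kb bins the ratio of 7G8 over input fell from 1.15 below 35% GC to 0.861 at 55 to 60% GC, and in gene bodies from 1.14 to 0.797. Above 60% GC it was higher again, at 0.906 and 0.833. In bins within 2 kb of a TSS it was instead higher at 55 to 60% GC than below 35%, at 1.37 and 1.17. Distal bins outside genes turned earlier, with 0.950 at 50 to 55%, 0.981 at 55 to 60% and 1.12 (1.08 to 1.16) above 60% GC. At 55 to 60% GC the 3 kinds of bin were thus widest apart, at 1.37 (1.36 to 1.38) beside TSSs, 0.861 (0.856 to 0.866) in distal bins and 0.797 (0.793 to 0.802) in gene bodies.

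TSSs ranked by the H3K9ac library's own tags, without input, gave a graded 7G8 signal. In the 3 lowest of 10 equal ranks, of 2060 TSSs each, the median log2 ratio of 7G8 over input was 0.07, -0.01 and -0.08. From there it rose in every rank, through 0.17 in the fifth and 0.61 in the eighth, to 1.15 in the highest. In the highest rank 1298 TSSs (63.0%) were at least 2-fold higher and 1 was lower, against 78 (3.79%) and 58 in the lowest. Input density at TSSs fell over the upper ranks, from a median of 23.0 scaled tags in the fourth rank to 18.2 in the highest, as 7G8 rose from 23.2 to 42.2. Both libraries thus moved, in opposite directions, and the part of input in the gradient was not tested. The ranks also differed in promoter class, with 4 CpG-rich TSSs in the lowest and 1583 in the highest. The part of promoter class in the gradient was not tested either.

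**Figure D2:**
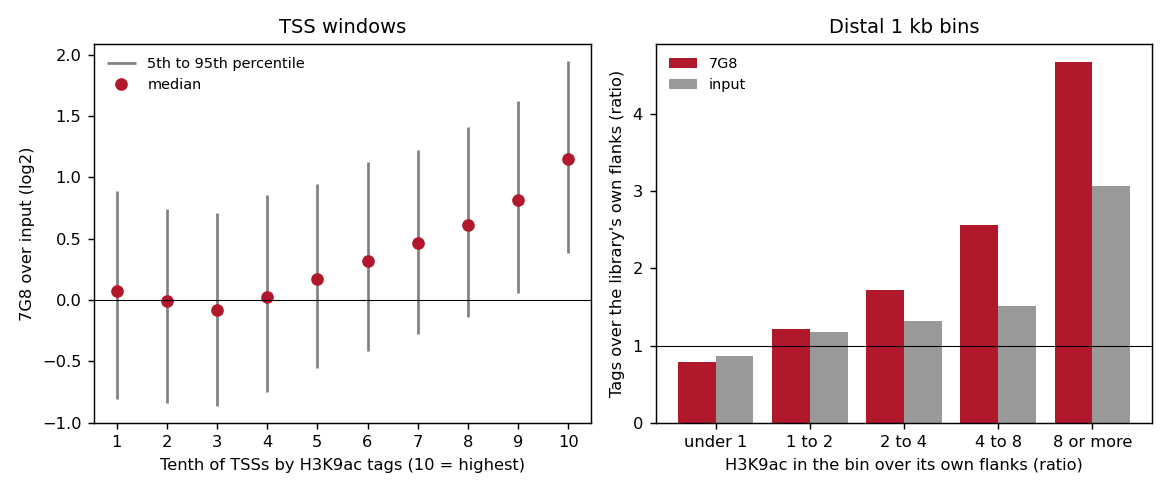
Left, median (points) and 5th to 95th percentile (lines) of 7G8 over input (log2) at TSS windows in 10 equal ranks by H3K9ac tags, from 0.07 in the lowest to 1.15 in the highest. Right, density of 7G8 and input in distal 1 kb bins over the library's own flanks, grouped by the H3K9ac density over its flanks, and 7G8 exceeds input from the group of 1 to 2 upwards.

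The 20 TSSs with the highest lower bound of the interval, 1 per joined window, were chosen by the ratio itself, so their values are a description. They held 60 to 222 tags in 7G8 and 4 to 34 in input, with log2 ratios from 2.27 to 3.09. By promoter class 13 were CpG-rich, 5 intermediate and 2 CpG-poor. All 20 remained at least 2-fold higher by the local ratio, which ran from 1.21 to 2.95.

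The list is described by what its genes are known to do, and this grouping was made after it was seen. Hnrnpa3, an RNA-binding protein of the hnRNP family that packages nascent transcripts, had 159 tags in 7G8 and 16 in input at its TSS (log2 2.86, interval 2.25 to 3.84, local 1.81). Rbm25, a splicing regulator, had 97 and 11 tags (2.63, 1.92 to 3.88, local 2.26). Fubp3, which binds single-stranded DNA and RNA, had 158 and 22 tags (2.43, 1.88 to 3.24, local 2.50). These 3 had log2 ratios of 4.88, 4.52 and 3.79 for H3K9ac and 2.85, 2.53 and 2.40 for 13HH3, over the same input.

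Among the genes of the translation machinery, Eif1a, an initiation factor that helps the ribosome scan for the start codon, had 127 and 14 tags (2.71, 2.07 to 3.78). Its window is shared with Tmed7. Eif2s2, the beta subunit of the factor that brings the initiator tRNA, had 114 and 13 tags (2.65, 1.99 to 3.77). The ribosomal protein genes Rps14 (144 and 21 tags, 2.36) and Rpl3 (172 and 26, 2.33) followed, and their local ratios were 2.00 and 2.24.

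Histone genes of the large cluster on chromosome 13 took 4 places, each in a window shared with neighbouring histone genes. Hist1h2bb, sharing with Hist1h3c, had 145 and 16 tags (2.73, 2.12 to 3.71, local 2.28), and Hist1h4a had 142 and 18 (2.55, local 1.97). Hist1h2ag had 136 and 19 tags (2.41, local 2.03). Hist1h4h had 111 and 14 tags (2.52), and its flanks, which hold other histone genes, were themselves 1.31 higher on the log2 scale, which left a local ratio of 1.21.

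The rest were of mixed function. Mttp, which loads lipid onto apolipoprotein B, had 111 and 11 tags (2.82, 2.13 to 4.06), in a window shared with Rg9mtd2, a tRNA methyltransferase family gene, and its local ratio of 2.95 was the highest of the 20. Ect2, a guanine nucleotide exchange factor needed in cytokinesis, had 150 and 17 tags (2.70, local 2.63). Cbx5, which encodes the heterochromatin protein HP1 alpha and shares its window with Hnrnpa1, had 142 and 20 (2.41, local 2.34). Hspa9, the mitochondrial Hsp70 chaperone, had 183 and 29 tags (2.27, local 1.72). Arrdc3, an arrestin-domain protein, had 119 and 17 (2.37, local 2.28), and 0610007P08Rik, an unnamed gene, 133 and 19 (2.38, local 2.15).

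The 2 CpG-poor members differed from the others in their H3K9ac. Gm17421, a predicted gene on chromosome 12, had only 4 input tags beside 60 of 7G8 (3.09, 2.16 to 5.51), in a region where the flanks were 1.77 higher, and its local ratio was 1.33. Gm11735, a predicted gene on chromosome 11 whose TSS lies inside St6galnac1, had 222 and 34 tags (2.33, 1.87 to 2.96, local 2.23). H3K9ac over input was 2.04 at Gm17421 and 2.07 at Gm11735, below 13HH3 at 3.10 and 2.67, whereas at each of the other 18 the H3K9ac ratio was the higher one.

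**Figure D3:**
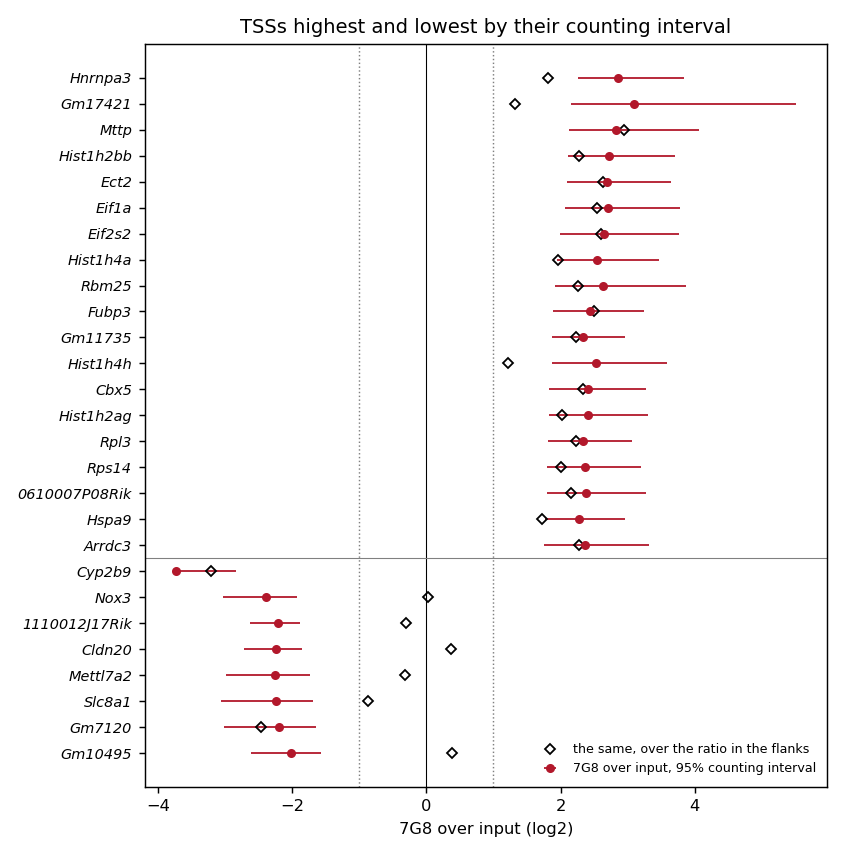
7G8 over input (log2; filled points with the 95% counting interval) at 19 of the 20 TSSs with the highest lower bound and the 8 with the lowest upper bound, and the local ratio over the flanks (open diamonds). These 19 stay right of the dotted 2-fold line by both measures, whereas 6 of the lowest 8 move inside the lines by the local ratio, and the interval of Cyp2b9, with 0 tags in 7G8, has no lower end.

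Of the 231 TSSs at least 2-fold lower, 52 lay in the segments of excess input and 179 outside them. Of the 8 TSSs with the lowest upper bound, 5 lay in the segments of excess input on chromosome 17, and 2 of the 8 stayed at least 2-fold lower by the local ratio. Nox3, an NADPH oxidase of the inner ear, had 35 tags in 7G8 and 155 in input (-2.39), and its local ratio was 0.03. Slc8a1, the sodium-calcium exchanger of heart muscle, had 24 and 98 (-2.24, local -0.87). Cldn20 (-2.23, local 0.36), Gm10495 (-2.02, local 0.38) and 1110012J17Rik (-2.21, local -0.30) behaved alike, and so did Mettl7a2 (-2.25, local -0.32), which is on chromosome 15 outside those segments. The other two kept their call: Cyp2b9, a cytochrome P450 gene, with 0 tags in all 3 antibody libraries and 23 in input (local -3.21), and Gm7120 with 24 tags in 7G8 and 95 in input (-2.20, local -2.47).

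Gene lists described below are counted beside the 15.1% of all TSSs that were at least 2-fold higher and the median of 0.33. They were not matched for promoter class, and CpG-rich promoters had 27.4% at least 2-fold higher and a median of 0.64. CpG-rich were 43 of 76 ribosomal protein, 31 of 40 splicing factor and 48 of 82 respiratory chain TSSs. So were 17 of 22 immediate early TSSs and 14 of 26 of genes that write and erase acetylation. Respiratory chain, immediate early and acetylation genes had 28.0%, 27.3% and 26.9% at least 2-fold higher, near that class. Cytosolic ribosomal proteins had 62 of 76 TSSs at least 2-fold higher (81.6%, median log2 1.33), and 54 by the local ratio, and only Rpl13a (-0.10), Rpl18 (-0.36) and Rps2 (-0.36) had a ratio below 0. Splicing factors of the Hnrnp, Srsf and Snrp families had 32 of 40 (80%, median 1.30), and 29 by the local ratio, led by Hnrnpa3 and Hnrnpa1. At the other end Srsf7 had 65 and 70 tags (-0.41), but it lies in an excess-input segment and its local ratio was 0.96.

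Replication-dependent histone genes, which are transcribed in S phase, had 50 of 62 TSSs at least 2-fold higher (80.6%), with a median of 1.53, the highest of the lists by library totals but not by the local ratio. These 62 TSSs, of 67 genes, shared 32 joined windows, so neighbours count the same tags. By the local ratio 26 of 62 passed and the median was 0.85, below the 1.46 of ribosomal proteins and the 1.22 of splicing factors, while the flanks of these genes had a median log2 ratio of 0.58. Enrichment of the cluster as a whole and enrichment of each gene cannot be told apart by these 2 measures. The testis form Hist1h1t, with 47 and 41 tags, was the lowest of those tested at -0.11.

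Heat shock proteins and chaperones had 30 of 81 TSSs at least 2-fold higher (37.0%, median 0.83), and 29 by the local ratio, led by Hspa9 and Hspa8, the constitutive cytosolic Hsp70 (104 and 19 tags, 2.03). Dnajb8 was lowest, with 69 and 100 tags (-0.83, local -0.22). Respiratory chain subunits had 23 of 82 (28.0%, median 0.75), and 27 by the local ratio, led by the complex I subunits Ndufb3 (67 and 12 tags, 2.01) and Ndufa7 (150 and 29, 1.99), with Ndufb8 lowest (32 and 46, -0.79, local -0.31).

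Pluripotency regulators had 10 of 32 TSSs at least 2-fold higher (31.2%, median 0.67). An interval above 0 was found at 20 of the 32, beside 6859 of all 20600 TSSs tested (33.3%). Tdgf1, the Nodal co-receptor Cripto, had 178 and 31 tags (2.14, 1.65 to 2.81, local 2.11), and Trim28, a co-repressor that silences retroelements, 116 and 23 (1.94, 1.36 to 2.73, local 1.34). Otx2 (1.54), Zfp42 (1.48), Tcf3 (1.37), Dppa2 (1.29), Gdf3 (1.23), Dppa5a (1.06), Sox2 (1.03) and Sall4 (1.02) followed. By the local ratio 5 passed, namely Tdgf1, Trim28, Tcf3, Gdf3 and Dppa5a.

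The core factors themselves were near or under the fold. Sox2 had 81 and 31 tags (1.03, 0.46 to 1.72), Pou5f1, which encodes Oct4, 145 and 61 (0.91, 0.49 to 1.39), Klf4 83 and 41 (0.68, 0.15 to 1.28) and Nanog 120 and 66 (0.54, 0.10 to 1.00). Esrrb, with 71 and 53 tags (0.10, -0.43 to 0.65), did not differ from input beyond counting error. The lowest was Fbxo15, with 36 and 44 tags (-0.57, -1.28 to 0.06), but at the 5′ end of the gene its ratio was 1.55, past the fold. Their H3K9ac ratios were 3.38 at Sox2, 2.44 at Pou5f1, 2.49 at Klf4, 1.91 at Nanog and 0.73 at Esrrb, over the same input.

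Markers of feeder fibroblasts had 0 of 10 TSSs at least 2-fold higher or lower, with a median of 0.03. The highest was Col1a2, a chain of type I collagen, with 57 and 28 tags (0.68, 0.03 to 1.42, local 0.74), followed by Col1a1 with 72 and 46 (0.32, -0.22 to 0.90), and Col3a1 was lowest with 20 and 26 (-0.63, -1.61 to 0.20). With the local ratio, 15.6% of pluripotency regulators and 0 feeder markers passed, beside 14.9% of all TSSs.

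**Figure D4:**
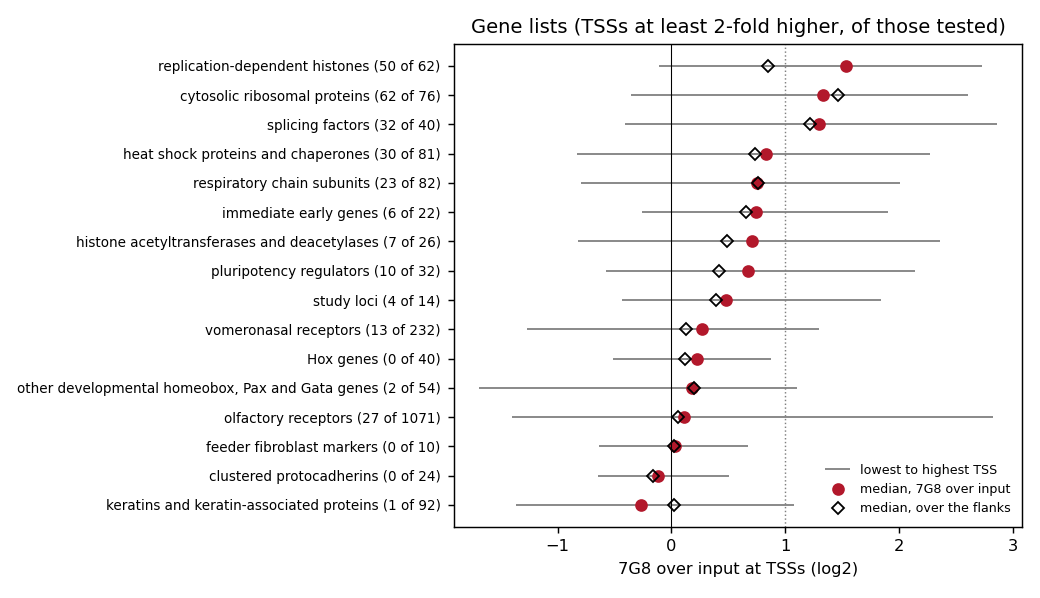
7G8 over input (log2) at the TSSs of each gene list, with the range (lines), the median (filled points) and the median of the local ratio (open diamonds), and the counts of TSSs at least 2-fold higher, of those tested, stand beside the names. Histone, ribosomal protein and splicing factor genes have medians of 1.53, 1.33 and 1.30, and Hox, receptor and keratin genes lie near 0.

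Genes that write and erase acetylation had 7 of 26 TSSs at least 2-fold higher (26.9%, median 0.71), and 5 by the local ratio. Hat1, which acetylates newly made H4, led with 112 and 16 tags (2.36, 1.73 to 3.35, local 1.66). Myst2, which encodes HBO1, had 152 and 26 (2.15, 1.63 to 2.89, local 2.02). Sirt3 (1.51), Hdac1 (1.24), Myst3 (1.11), Sirt6 (1.01) and Hdac2 (1.01) completed the 7, and Kat2a, which encodes GCN5, was under the fold at 0.82. The local ratios of Myst3 (0.47) and Sirt6 (0.84) were under the fold. Hdac7, a class IIa deacetylase, was lowest with 54 and 78 tags (-0.82, local -0.18).

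Immediate early genes had 6 of 22 TSSs at least 2-fold higher (27.3%, median 0.75). By the local ratio 3 passed (13.6%, beside 14.9% of all TSSs). The 6 were Ier2 (151 and 31 tags, 1.91), Klf6 (83 and 21, 1.58), Fos (1.33), Egr1 (1.21), Fosb (1.14) and Jund (1.12). Arc, a neuronal activity gene, was lowest with 112 and 108 tags (-0.26, -0.66 to 0.13). Its 7G8 tags were as many as those of Hat1, and its input tags were 108 against 16.

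Developmental genes lay close to all TSSs or below. Hox genes, which pattern the body axis, had 0 of 40 TSSs at least 2-fold higher, with a median of 0.23. Hoxb3 was lowest at -0.51 (22 and 26 tags), and Hoxb4 stood at 0.78 (70 and 32), which became -0.07 in 1 kb windows. For H3K9ac and 13HH3 over the same input their medians were 1.20 and 0.60. Other homeobox, Pax and Gata genes had 2 of 54 higher, Irx5 (80 and 29 tags, 1.10) and Nkx2-6 (41 and 15, 1.05, local 0.88), of which only Irx5 passed by the local ratio, and 2 lower, among them Lhx3 (20 and 56 tags, -1.69, local -1.55), with a median of 0.18.

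Gene families of differentiated cells lay below the median of all TSSs. Of the olfactory and vomeronasal TSSs tested, 1051 of 1071 and 231 of 232 were CpG-poor. That class had a median of 0.06 and 3.94% at least 2-fold higher. For these receptors the H3K9ac medians over the same input were -0.55 and -0.35, and those of 13HH3 -0.34 and -0.32. Olfactory receptors, expressed in the nasal epithelium, had 27 of 1071 TSSs at least 2-fold higher (2.52%, median 0.11), and 21 by the local ratio. The highest were Olfr1432 (23 and 1 tags, 2.83, local 1.74) and Olfr1431 (37 and 3, 2.70, local 1.62), neighbours in an input-poor stretch, and the lowest was Olfr1036 (7 and 18, -1.41). Vomeronasal receptors had 13 of 232 (5.60%, median 0.27), led by Vmn1r175 (34 and 10 tags, 1.30, local 0.51) and Vmn1r178 (50 and 16, 1.24, local 0.84), with Vmn1r62 lowest (11 and 24, -1.27). With the local ratio 5 vomeronasal TSSs passed.

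Keratins and keratin-associated proteins had 1 of 92 TSSs higher, Krtap4-13 (21 and 7 tags, 1.08, local 1.26), whose interval of -0.02 to 2.75 held 0. Of the list, 4 were lower, among them Krtap9-3 (28 and 61, -1.37, local -1.05), the one of the 4 that stayed lower by the local ratio. Their median was -0.27 and rose to 0.03 by the local ratio. Krtap5-5, the second highest, had 68 and 27 tags (0.97). Clustered protocadherins, cell-surface proteins of neurons, had 0 of 24 past the fold in either direction and a median of -0.12, from Pcdhb2 (31 and 17 tags, 0.51) and Pcdhb1 (70 and 41, 0.44) to Pcdhb21 (27 and 35, -0.65).

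Of 14 loci listed here as study loci, not all of them named in the study's text or primer list, 4 were at least 2-fold higher in 7G8. By the local ratio 3 were. The study took up the named loci on its own libraries, so their directions are not independent evidence. Hnrnpa2b1, another hnRNP gene, had 131 and 28 tags (1.84, 1.31 to 2.56, local 1.63). B230219D22Rik had 89 and 20 (1.75, local 1.58) and Hspd1, the mitochondrial Hsp60 chaperonin, 108 and 27 (1.62, local 1.21). 4930486L24Rik, a CpG-poor TSS, had 60 and 22 tags (1.07, 0.41 to 1.91, local 0.82), and it is the one that lost the fold.

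The last of these was the one of the 4 with low H3K9ac. At 4930486L24Rik the log2 ratio was 0.40 for H3K9ac and 0.92 for 13HH3, whereas at Hnrnpa2b1 it was 4.16 and 2.37. Tcfap2d, a transcription factor of the AP-2 family (46 and 22 tags, 0.70, -0.01 to 1.55), and Hhip, which binds Hedgehog ligands (56 and 27, 0.70, 0.05 to 1.46), were under the fold. Grm8 (0.54), Cbara1 (0.41), Sntg1 (0.19), Dsc1 (0.05), Gabra4 (-0.12), Plagl1 (-0.40), Bnc1 (-0.43) and Rnf25 (-0.43) all had intervals that held 0. Of these, Cbara1, Plagl1 and Bnc1 are not named in the study's text or primer list.

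Gene bodies, from 2 kb past the TSS to the gene end and leaving out 2 kb around any annotated start, held a slightly smaller share of the 7G8 tags than of the input tags. The pooled ratio was 0.965 (0.964 to 0.966), and 0.983 without the 38 segments. It rose with gene length, from 0.842 for genes of 5 to 20 kb to 0.885 at 20 to 50 kb, 0.958 at 50 to 100 kb, 0.993 at 100 to 250 kb and 1.01 above that. The bodies of genes whose TSS was at least 2-fold higher had a ratio of 1.07, against 0.951 for the others. Without the 38 segments these were 1.07 and 0.971. The split itself used the TSS ratio over the same input, and no local ratio was taken for this comparison, so the part of input in it was not tested.

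The ratio declined along genes, here genes of at least 10 kb taken from their 5′ end, without leaving out annotated starts. Unlike the bodies above, the first step therefore includes signal beside the start site. In genes with a CpG-rich promoter the ratio was 1.89 (1.87 to 1.91) in the last kb before the gene, 1.22 in the first of 10 equal steps of the gene and 0.833 (0.830 to 0.836) in the last. The tags of both libraries moved. From the first to the last step of these genes, 7G8 went from 610738 to 491253 tags and input from 402431 to 474132. In genes with a CpG-poor promoter the ratio was 1.14, 1.06 and 0.907 at the same places, and in the intermediate class 1.53, 1.13 and 0.891.

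**Figure D5:**
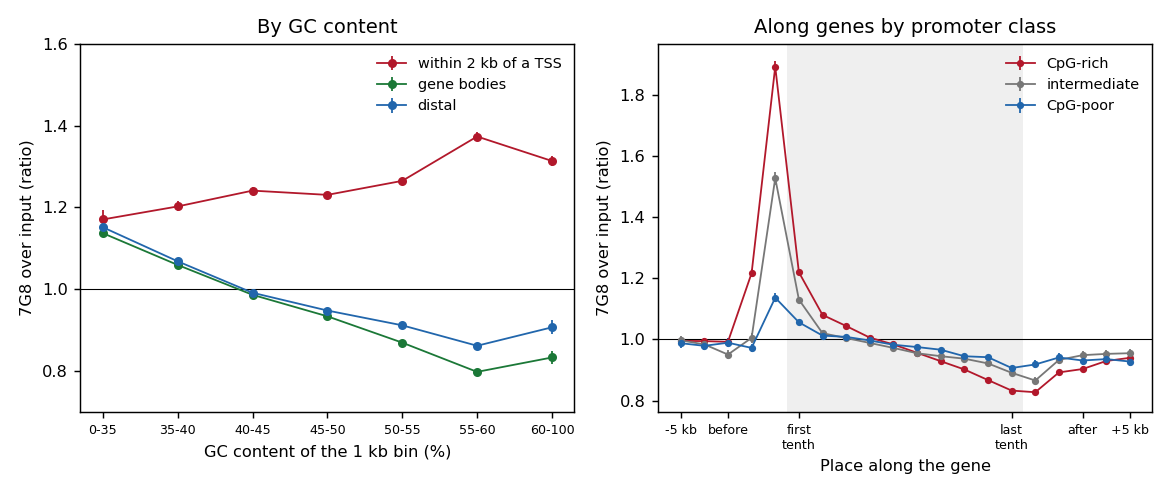
7G8 over input (ratio, bars are 95% counting intervals), left by the GC content of 1 kb bins beside TSSs, in gene bodies and in distal sequence, right in 1 kb steps before and after genes and in 10 equal steps of the gene (shaded) by promoter class. The genes at right are of at least 10 kb, taken from their 5′ end with starts not left out. Left, TSS bins reach 1.37 at 55 to 60% GC where gene bodies fall to 0.797, and right, CpG-rich genes fall from 1.89 before the gene to 0.833 in the last step.

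Of 15061 gene bodies with at least 20 tags, 88 (0.584%) were at least 2-fold higher in 7G8 and 678 (4.5%) at least 2-fold lower. By the local ratio 57 (0.378%) and 450 (2.99%) passed. The median log2 ratio was -0.11. The 8 highest by the lower bound of the interval, and so chosen by the ratio itself, were led by Gm5591, with 26 tags in 7G8 and 0 in input.

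All of the 8 but St6galnac1 had little input per kb. Klra6 and Klra4, of the Ly49 receptor cluster, had 68 and 6 tags (2.84, 1.99 to 4.68, local 1.77) and 205 and 31 (2.34, 1.86 to 3.00, local 0.08). Apol10a had 137 and 18 (2.49, local 1.81) and Apol11a 70 and 13 (1.97, local 1.18). Gm16387 had 147 and 22 (2.33, local 0.47) and Sirpb1c, a signal-regulatory receptor gene, 151 and 35 (1.74, local 0.05). Per kb these 6 bodies, without Gm5591, held 0.289 to 1.99 scaled input tags, against 4.79 over all bodies, and H3K9ac and 13HH3 over the same input were 0.79 to 2.04 and 1.33 to 2.46 there.

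St6galnac1, a sialyltransferase that modifies mucin sugars, was the one of the 8 with input nearer the level of all bodies. Its body of 27.5 kb held 575 tags in 7G8 and 163 in input (1.49, 1.25 to 1.76), and its flanks had a log2 ratio of -0.12, so that the local ratio was 1.61. Input there was 3.18 scaled tags per kb and 7G8 9.01. The 3 antibodies gave like values over this body, 1.49 for 7G8, 1.37 for H3K9ac and 1.52 for 13HH3, all over the same input. The TSS of Gm11735, among the highest, lies inside this gene, and the 2 kb around that start were left out of the body.

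Distal sequence, in 1 kb bins more than 5 kb from any annotated start, held 80.3% of the 7G8 tags and 80.5% of the input tags, a ratio of 0.997 (0.996 to 0.997). It was 0.975 inside protein-coding genes and 1.01 outside them, and it rose from 0.975 at 5 to 10 kb from a start to 1.04 at 250 to 1000 kb. Without the 38 segments the ratio of all distal bins was 1.02. Of 1520374 bins with at least 10 tags, 6359 (0.418%) were at least 4-fold higher in 7G8 and 5239 (0.345%) at least 4-fold lower. By the local ratio the counts were 3651 (0.24%) and 3078 (0.202%). With background scaling, set on the 10 kb bins at or below the median, they were 4433 and 6431. These counts rest on few tags per bin. With a pseudocount of 5 there were 12 higher and 451 lower bins, with a minimum of 20 tags 2167 and 2735, and with a pseudocount of 0.1 there were 26230 higher. 

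A distal signal did appear where bins were grouped by H3K9ac, again by that library's own tags over its own flanks. Bins from 2 times the flanks upwards were kept only with at least 10 H3K9ac tags, a minimum that the groups below did not have. In the 82060 such bins where H3K9ac was 2 to 4 times its flanks, 7G8 was 1.71 times its own flanks and input 1.32 times. The ratio of 7G8 over input by library totals was 1.29 there, and 1.30 over the flanks. In the 7538 bins where H3K9ac was 4 to 8 times its flanks, the densities over the flanks were 2.56 and 1.51, and the ratio by library totals was 1.67 (1.66 to 1.68). In the 829 bins above 8 times they were 4.67 and 3.06, and the ratio by library totals was 1.53, with 1.57 as the upper bound. Input thus rose in the same bins, and its share in what 7G8 shows there was not tested. Outside genes the 3 ratios by library totals were 1.28, 1.65 and 1.49.

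Called distal bins joined into 6155 regions, of which 161 spanned more than 1 bin and 1273 had no input tag. The regions named below were chosen by the ratio itself, so their values are a description. The highest by the lower bound of the interval was the 1 kb at chr2:156555001-156556000, inside Dlgap4 and 45.7 kb from the TSS of Myl9, with 39 tags in 7G8 and 0 in input. Against the floor of 3 input tags that is at least 10.5-fold higher, a bound that leaves out the counting error of the 7G8 tags. The lower bound of the interval, which covers both libraries, was 3.02 on the log2 scale. H3K9ac had 63 tags and 13HH3 19 in it, and its flanks held 1400 tags of 7G8 and 1033 of input, a log2 ratio of 0.12. Dlgap4 is a scaffold protein of synapses and Myl9 a myosin light chain.

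Others lay where input was sparse over a wide span. The 6 kb at chr19:9255001-9261000, 47.9 kb from Asrgl1, had 130 and 6 tags (3.76, 2.96 to 5.59), and its flanks had a log2 ratio of 1.31. The 3 kb at chr4:121649001-121652000, far from any protein-coding TSS (355.8 kb from Gm12887), had 35 and 0, at least 9.38-fold higher against the same floor and with 2.85 as the interval's lower bound, and flanks at 2.90. Regions in Klra4 (118 and 7 tags), near Gm16387 (166 and 12) and near Olfr1431 (58 and 2) had flanks at 2.03, 1.61 and 0.95.

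The 2 kb near Reg3g, an antibacterial lectin gene (chr6:78449001-78451000), had 31 and 0 tags, at least 8.31-fold higher against the floor and with 2.67 as the interval's lower bound, and flanks at -0.27. The 2 kb inside Rbpj, the DNA-binding effector of Notch signalling (chr5:54015001-54017000), had 45 tags in 7G8 and 1 in input (3.73, 2.62 to 10.51), with flanks at 0.63. Both had tags of H3K9ac (18 and 40) and of 13HH3 (13 and 19).

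Ranked by the lower bound less the log2 ratio of the flanks, an order added after the values were seen, 6 of the 8 distal regions were others. The one with most tags was near Ranbp17, a nuclear transport receptor gene, 3 kb at chr11:33435001-33438000, 22.8 kb from its TSS, with 103 tags in 7G8 and 8 in input (3.10, 2.34 to 4.62, local 2.97). H3K9ac had 388 tags there, a log2 ratio of 5.03, and 13HH3 67 (2.63). The rest had 13 to 43 tags in 7G8 and 0 or 1 in input.

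Promoter sequence was searched for 11 short motifs on both strands, from 250 bp before to 50 bp after the TSS. Among CpG-rich promoters the 2099 at least 2-fold higher in 7G8 held the Ets motif CCGGAAGT in 11.8%, against 9.21% of all CpG-rich promoters, the NRF1 core GCATGCGC in 8.38% against 6.53%, the CCAAT box CCAATCA in 13.5% against 10.8% and the cyclic AMP response element TGACGTCA in 5.29% against 4.05%. The E-box CACGTG was in 272 of the 2099, against 11.3% and the TATA box TATAAA in 5.34% against 4.69%. The GC box GGGCGG, of Sp and Klf factors, was in 75.2% against 78.2%, and the CACC box GGGTGTGG in 2.76% against 3.30%. Distal bins at least 4-fold higher held the octamer ATGCAAAT, of the family of Oct4, in 8.41%, against 7.39% of all distal bins, and the motif of estrogen-related receptors TCAAGGTCA in 2.55% against 2.38%. The latter was in 1 of the 2099 CpG-rich promoters, against 0.170% of all CpG-rich promoters, and the octamer in 1.38% against 1.26% and AP-1 in 3.05% against 2.92%. The TATA box was in 66.9% of the higher distal bins against 60.7%, and the E-box in 8.35% against 9.94%. Distal bins at least 4-fold lower held the octamer in 6.85%, the TATA box in 57.1% and the E-box in 11.6%. The distal ratio fell with GC content over most of its range, and the bins compared here were not matched for it. A match to these letters is not a bound site. The printed sequences held the TATA box TATAAA at Hist1h2bb and the AP-1 motif TGANTCA, which is in 28.7% of all distal bins, near Asrgl1, and none of the 11 in the other 4.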

How the data were processed

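Tags of chromosomes 1 to 19 were analysed for 7G8 and input, and those of H3K9ac and 13HH3 were set beside them. The study's methods name neither the 7G8 library nor this input, and its data list gives another input. Those for the other libraries were taken to hold for both. The authors aligned single-end reads to mm9 with ELAND, allowing a mismatch, and deposited 1 line per mapped read, with start, end and strand. The deposited score column is 1 on every line and was read as 1 tag. The files of 7G8 and input repeat no position and strand, and 738711 repeats were dropped from 13HH3. No tag lies past the end of an mm9 chromosome. Per the study's methods, if they hold for this input, input was amplified with fewer PCR cycles than the antibody libraries. Reads without molecular identifiers are not independent molecules.

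The deposited libraries held 19313927 (input) to 23839094 (7G8) tags. Tags were moved 100 bp to their 3′ side, counted in windows around the TSSs of GENCODE vM1 protein-coding genes, in gene bodies of genes of at least 5 kb and in distal 1 kb bins, and scaled to 10000000 tags per library. Each gene had 1 TSS, the start shared by most of its protein-coding transcripts. Intervals are exact Clopper-Pearson 95% intervals of the 7G8 share of both libraries' tags, and a fold against 0 input tags used a floor of 3. With 1 library per group, called means past 2-fold (TSSs, bodies, at least 20 tags) or 4-fold (distal bins, at least 10 tags). The counting and interval code was checked on simulated tags. Python 3.11.15, numpy 2.4.6, scipy 1.17.1 and pandas 2.3.3 were used.

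Named items are the 20 TSSs, 8 bodies and 8 joined distal regions with the highest lower bound, the 8 TSSs with the lowest upper bound, and from each gene list the 2 highest and the lowest, with all members of the list of study loci. A few items that this rule names are not reported here. Further list members are named where a count is spelled out or a marker is checked, chosen after their values were seen. The members, lists and thresholds were chosen with earlier results of these data known. The local ratio of distal bins, scaling by chromosome, the grouping by H3K9ac and leaving out the 38 segments were added after the data were seen. Alternatives in scaling, shift, windows, minimum and pseudocount are given at the end.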

Additional observations from a re-analysis of the deposited data

Results flagged for a closer look

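Outside chromosomes 1 to 19, which the comparisons above used, chromosome Y held 18750 tags in 7G8 and 3343 in input, a log2 ratio of 2.17 (95% counting interval 2.12 to 2.23). H3K9ac and 13HH3 over the same input stood at 1.59 and 1.85. On chromosome X the 7G8 ratio was -0.44. Mitochondrial DNA held 1740 tags in 7G8 and 785 in input, a log2 ratio of 0.83, with H3K9ac at 1.03 and 13HH3 at -0.27. All 3 antibody libraries thus held a larger share of chromosome Y than input, and the cause was not tested.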

How the results depend on the processing

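No paired analysis was possible because each group holds 1 library, and no replicate could be left out. With all deposited tags as library size, the log2 ratio was 0.35 over TSS windows (0.34 as reported), -0.039 over gene bodies (-0.05) and 0.00659 over distal bins (-0.0047), the last with the opposite sign. It was also above 0 over distal bins more than 10 kb from a start (0.000748) and without the segments of excess input (0.023). With background scaling the 3 ratios were 0.25, -0.14 and -0.0951. With each chromosome scaled apart they were 0.35, -0.044 and -0.00584, and without the segments TSSs stood at 0.36 and bodies at -0.024. TSS windows of 1 kb gave 0.50 and the local ratio 0.38, bodies without the mask -0.060, genes of at least 20 kb -0.038, and distal bins from 2 kb -0.012.

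TSSs at least 2-fold higher fell from 3102 to 1973 with a pseudocount of 5, were 2512 with background scaling and rose to 4626 in 1 kb windows. Distal bins at least 4-fold higher, 6359 as reported, were 26230 with a pseudocount of 0.1, 12 with 5, 2167 with a minimum of 20 tags and 3651 by the local ratio. With the pseudocount of 5 and with the minimum of 20, more distal bins passed downwards (451 and 2735) than upwards. Summed over genes, CpG-rich less CpG-poor promoters differed by 0.59 on the log2 scale, by 0.73 in 1 kb windows, 0.58 at the gene's 5′ end, 0.60 by the local ratio, and by 0.94, 0.75 and 0.42 within windows of 40 to 45%, 45 to 50% and 55 to 60% GC. The cause of these shifts was not tested.

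Of 1124 values of named items and lists under the alternatives, 1071 stayed within counting error or 1.5 times, 50 moved further, and 3 TSSs past the fold changed sign, all by the local ratio: Nox3 (0.030), Cldn20 (0.36) and Gm10495 (0.38). Another 12 values of TSSs under the fold changed sign, among them Fbxo15 (1.55 at the gene's 5′ end), Srsf7 (0.96 by the local ratio) and Hoxb4 (-0.07 in 1 kb windows). Moving tags to the middle of each library's own fragments, of 160 bp for 7G8 and 180 bp for input, changed no call of the pooled results. Depth limits single windows: a median TSS window held 60 tags in 7G8 and 36 in input.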
